A study of Mus musculus with 24 samples.

Results

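The genes described here are 36 mouse genes of the interferon response and of antigen presentation, taken by name from 24443 genes measured in liver. They comprise 4 transcription factors, 1 sensor, 10 antiviral effectors, the ubiquitin-like modifier Isg15 and its protease Usp18, 6 guanylate-binding proteins and immunity-related GTPases, 4 genes of the immunoproteasome and peptide transporter, 3 class I genes, 4 class II genes and the apolipoprotein pair Apol9a and Apol9b. Every one of the 36 had a row above 0 and passed the filter on low values (a mean log2 level of at least 4) in each of 4 tables, so all 36 were tested in every comparison. Liver RNA of C57BL/6 mice was sequenced in 5 groups of 4 libraries. The groups were fasted WT mice (Bcl6 fl/fl without Cre, an overnight fast), fed Bcl6LKO mice (Bcl6 fl/fl with Alb-Cre, so that recombination is driven by the albumin promoter of hepatocytes), fasted PparaKO mice (Ppara-/-, a deletion in every cell), fasted DKO mice (Ppara-/- with Bcl6 fl/fl and Alb-Cre) and fed WT mice (Bcl6 fl/fl without Cre). The floxed Bcl6 allele is carried by every group except the PparaKO mice, whose label names no Bcl6 allele. Ages were not given in the sources used here, and the labels do not state that the libraries came from separate animals, so that p-values measure the spread between these libraries.

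Interferons are secreted proteins that bind receptors at the cell surface and activate JAK kinases. Type I interferons lead to a complex with STAT2 and IRF9 that binds the interferon-stimulated response element (ISRE), whereas interferon gamma acts through gamma-activated sites, and the products of the induced genes block viruses and load peptides onto class I and class II molecules. Class I molecules are carried by nearly all cells. Class II molecules are carried mainly by dendritic cells, macrophages and B cells, which in liver lie among the hepatocytes. BCL6 is a zinc finger repressor known in lymphocytes, and PPARα is a fatty acid receptor that controls the fasting response of hepatocytes.

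The promoters of these genes were searched for the interferon motifs before their values are given. RefSeq (GRCm38.p6) listed a promoter for 30 of the 36 genes, and 250 bases before each start were searched on both strands for an ISRE core (GAAANNGAA), a gamma-activated site (TTCNNNGAA) and a core of the BCL6 motif (TTCCTAGAA), which is itself one spelling of the gamma-activated site. The ISRE core was found in 16 of the 30 genes and in 8.18% of all 27025 genes with a promoter. The gamma-activated site was found in 7 of the 30 and in 8.13% of all genes, and the BCL6 core in 1 of the 30, Igtp, and in 0.396% of all genes. A match is a run of letters and not a bound site, and an element outside these 250 bases or spelled otherwise would be missed. The sequences printed are the 150 bases before the start, with each ISRE core and gamma-activated site in capitals (either strand). Ifit1 and Isg15 are shown as effectors with several ISRE cores, Bst2 as the member that fell most with fasting, Irf1 for its gamma-activated site, Igtp for the BCL6 core next to an ISRE core, and the Apol9 pair because its promoters are nearly the same.
Ifit1 (chr19:34640739-34640888, plus strand): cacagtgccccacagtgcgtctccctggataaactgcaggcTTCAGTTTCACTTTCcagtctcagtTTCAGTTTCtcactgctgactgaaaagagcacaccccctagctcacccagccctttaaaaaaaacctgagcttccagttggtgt
Isg15 (chr4:156200819-156200968, minus strand): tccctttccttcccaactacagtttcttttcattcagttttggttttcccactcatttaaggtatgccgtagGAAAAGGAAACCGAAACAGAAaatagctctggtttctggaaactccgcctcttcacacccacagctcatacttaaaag
Bst2 (chr8:71537473-71537622, minus strand): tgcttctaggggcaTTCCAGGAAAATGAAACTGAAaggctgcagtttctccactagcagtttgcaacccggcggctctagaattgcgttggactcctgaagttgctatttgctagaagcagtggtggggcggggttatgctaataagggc
Irf1 (chr11:53769864-53770013, plus strand): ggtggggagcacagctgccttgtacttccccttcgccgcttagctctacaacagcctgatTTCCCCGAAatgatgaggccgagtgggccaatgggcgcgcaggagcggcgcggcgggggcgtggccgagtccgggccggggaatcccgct
Igtp (chr11:58199406-58199555, plus strand): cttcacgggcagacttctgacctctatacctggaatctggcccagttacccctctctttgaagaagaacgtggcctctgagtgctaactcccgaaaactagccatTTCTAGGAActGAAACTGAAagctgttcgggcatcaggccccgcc
Apol9a (chr15:77411081-77411230, minus strand): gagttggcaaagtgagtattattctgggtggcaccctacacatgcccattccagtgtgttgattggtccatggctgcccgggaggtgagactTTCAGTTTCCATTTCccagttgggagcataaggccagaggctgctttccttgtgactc
Apol9b (chr15:77728922-77729071, plus strand): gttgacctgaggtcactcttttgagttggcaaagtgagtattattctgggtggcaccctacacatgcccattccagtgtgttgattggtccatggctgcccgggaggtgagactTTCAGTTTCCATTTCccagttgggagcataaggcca
In Igtp the first run of capitals is the BCL6 core read on the opposite strand, and the second is the ISRE core. The Apol9a and Apol9b promoters had an identical stretch of 231 bases, which held 2 overlapping ISRE cores. The last bases of the Apol9b window lie inside the annotated span of that gene, because RefSeq gives it several starts.

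The values are log2 levels that the authors scaled separately in each table, with low values drawn towards the mean of the gene, so that a log2 difference understates the change of a weakly expressed gene and levels are compared only within a table. No read counts were at hand, so the depth behind each value is unknown. No library was a copy of another. The targeted genes were examined first. Bcl6 was 7.62, 7.87, 8.54 and 7.85 in Bcl6LKO fed livers, against 8.02, 9.28, 10.49 and 10.18 in WT fed livers (log2 difference -1.53, SE 0.45, adjusted p = 0.0207). These groups overlapped, the lowest WT fed library (8.02) being below the highest Bcl6LKO library (8.54). Bcl6 was 7.81, 8.13, 7.69 and 7.32 in DKO fasted livers, against 8.85, 9.39, 7.32 and 6.95 in WT fasted livers (difference -0.39, SE 0.47, adjusted p = 0.540), so the 2 groups overlapped and the loss of Bcl6 could not be read from its level in that table. Ppara was lower by 1.04 (SE 0.08) in PparaKO and by 1.77 (SE 0.19) in DKO livers on the log2 scale, in each case without overlap with WT. A gene is called changed at an adjusted p under 0.05 in limma's moderated test with Benjamini-Hochberg adjustment over all genes tested. No member changed 2-fold in any of the 4 comparisons, the largest log2 difference being 0.89.

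Some libraries stood apart over the members. Replicate 2 of the Bcl6LKO group was the highest of its 4 in 23 of 36 members and replicate 1 the lowest in 23, against 22.4% and 26.4% of all genes tested. In PparaKO livers replicate 3 was the highest and replicate 1 the lowest in 19 members each (20.2% and 26.4% of all genes). In DKO livers replicate 1 was the highest in 22 members and replicate 4 the lowest in 23 (27.2% and 31.7% of all genes). Among WT fed livers replicate 3 was the highest in 18 members and replicate 1 the lowest in 23 (28.3% and 25.8% of all genes in the fasting table), and among WT fasted livers replicate 2 was the highest in 17 (22.4% in that table). The counts of calls without each such library are given with each comparison.

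**Figure D1:**
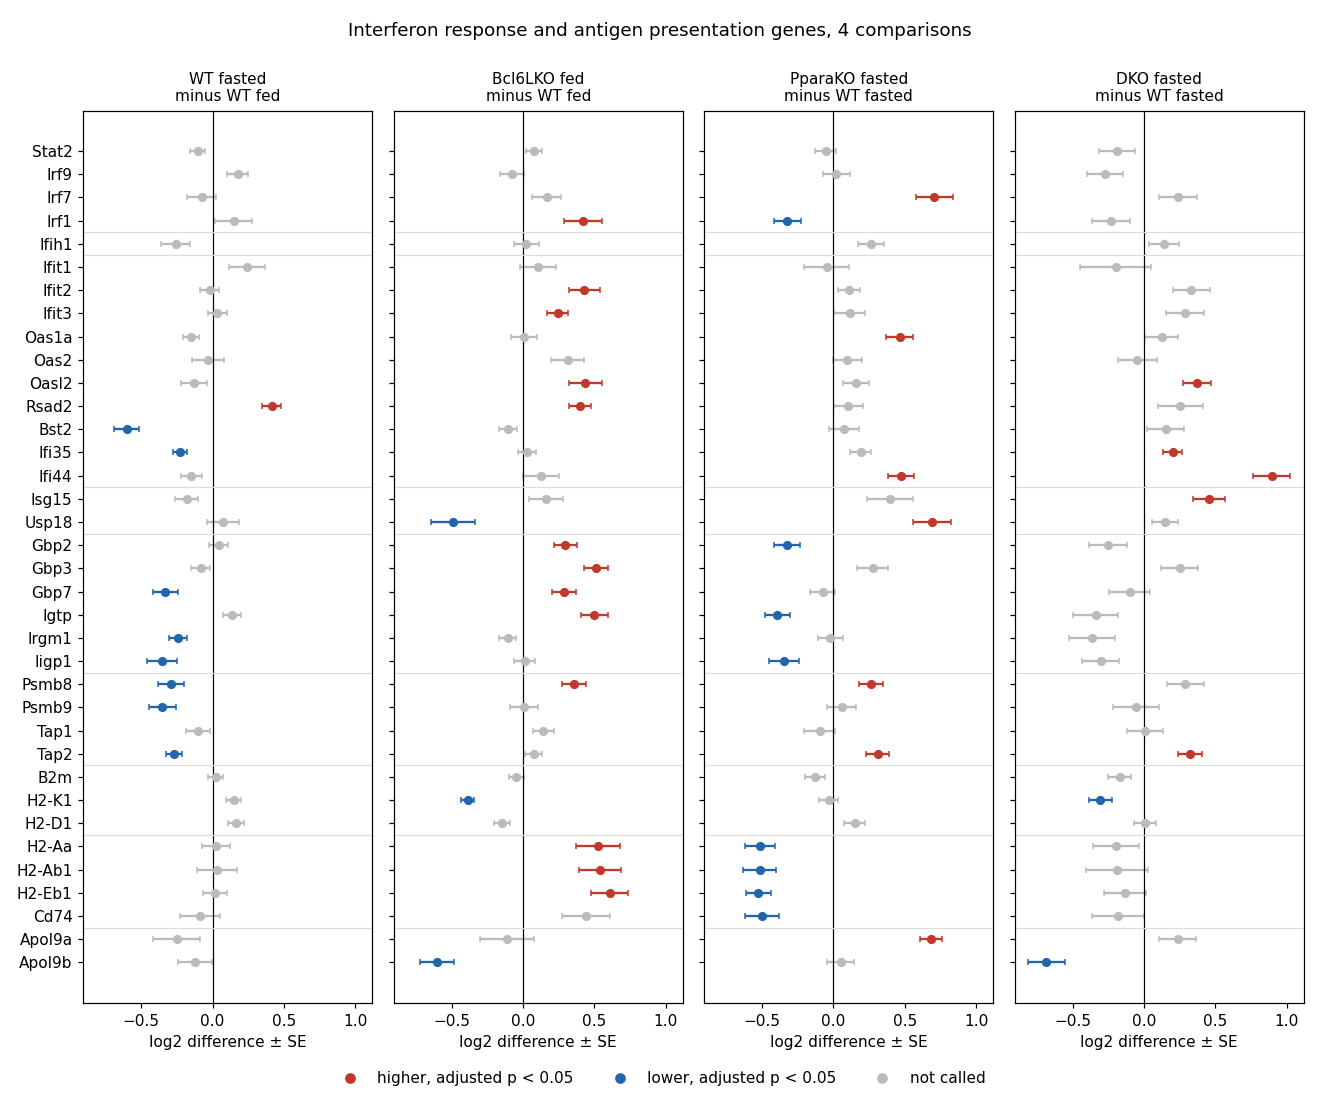
Log2 differences (x axis, with SE) of the 36 genes (rows, by role) in the 4 comparisons, each panel giving the first-named group minus the second. Red points passed the test as higher, blue points as lower and grey points did not pass. The class II genes (H2-Aa to Cd74) lie to the right in Bcl6LKO livers, to the left in PparaKO livers and near 0 with fasting.

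Fasting of WT mice was compared with feeding to ask how the response stood in normal physiology. Of the 36 genes, 8 fell and 1 rose. Across all 11910 genes tested, 11.0% fell and 11.9% rose, against 22.2% and 2.78% of the members. The members' median difference was -0.09, and that of all genes was -0.00254. The groups did not overlap in 8 members (22.2%, against 26.3% of all genes). The genes that fell were antiviral effectors (Bst2 and Ifi35), GTPases (Gbp7, Irgm1 and Iigp1) and genes of peptide supply (Psmb8, Psmb9 and Tap2).

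Bst2 (tetherin, which holds budding virus at the cell surface) was 9.36, 9.38, 8.94 and 9.27 in fasted livers, against 9.88, 9.84, 9.87 and 9.76 in fed livers. Every fasted library was below every fed one, with a difference of -0.60 (SE 0.09, adjusted p = 0.00117). Rsad2 (viperin, an antiviral enzyme) was 7.78, 7.94, 7.90 and 7.99 in fasted livers, against 7.56, 7.51, 7.56 and 7.33 in fed livers. It was the only member that rose, by 0.41 (SE 0.07, adjusted p = 0.00209), and its groups did not overlap. Tap2, which with Tap1 forms the transporter that carries peptides into the endoplasmic reticulum, was 7.99, 7.99, 8.02 and 8.17 in fasted livers, against 8.28, 8.27, 8.36 and 8.34 in fed livers (difference -0.27, SE 0.05, adjusted p = 0.00619). Its partner Tap1 had a difference of -0.10 (SE 0.08, adjusted p = 0.408).

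Psmb8, an inducible catalytic subunit of the immunoproteasome, had a difference of -0.29 (SE 0.09, adjusted p = 0.0468). Psmb9, another such subunit, had one of -0.35 (SE 0.09, adjusted p = 0.0215). Of the 14 constitutive proteasome genes, none fell and 2 rose. Ifi35 fell by 0.23 (SE 0.05), Gbp7 by 0.33 (SE 0.09), Irgm1 by 0.24 (SE 0.06) and Iigp1 by 0.35 (SE 0.11). The classical class I heavy chains did not pass the test, although in both every fasted library was above every fed one. The difference of H2-K1 was 0.15 (SE 0.05, adjusted p = 0.0615), and that of H2-D1 was 0.17 (SE 0.06, adjusted p = 0.0632). Both were called higher with library medians set equal (adjusted p = 0.0438 for H2-K1 and 0.0467 for H2-D1). H2-K1 was also called with a common prior spread for all genes (0.0420), and H2-D1 without fed replicate 2 (0.0416). The 4 class II genes had differences between -0.09 and 0.03, and none of the 4 transcription factors was called.

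In the wider pathway, 10 of 44 other interferon-induced effectors fell and none rose, led by Ifi47 (-0.88, SE 0.11), Ly6e (-0.85, SE 0.09) and Ifitm3 (-0.66, SE 0.07), and 7 of 19 other class I genes fell and 1 rose. Across all genes tested, 11.0% fell and 11.9% rose. Of 8 interferon genes listed, none passed the filter in this or any other table. Markers of other cells also differed. Of the stellate cell markers 5 of 8 fell, and of the erythroid markers 5 of 6 rose and 1 fell. Marker sums add the levels after back-transformation from log2, so the most abundant markers weigh most. The summed hepatocyte markers were 20.23 to 20.40 in fasted livers and 19.70 to 20.14 in fed livers, with 4 of 10 called higher and 1 lower. The summed dendritic cell markers were 7.65 to 7.75 in fasted livers and 7.51 to 7.59 in fed livers with 0 of 3 called by limma, and the summed monocyte markers were 9.06 to 9.25 in fasted livers and 9.29 to 9.65 in fed livers. Their part in these results was not tested. Same-numbered libraries deviated together in this table, although the labels state no pairing, and with the number as a block Ifih1 was also called lower (difference -0.26, adjusted p = 0.00717) and H2-D1 higher (0.17, adjusted p = 0.0358), giving 2 higher and 9 lower. With library medians set equal, 3 members were higher and 7 lower, and with library totals set equal, 1 was higher and 13 lower, Ifih1, Oas1a, Isg15, Ifi44 and Stat2 being added. With equal totals, 810 of all 11910 genes tested were higher and 3293 lower, against 1416 and 1309 as deposited. Calls for 5 members were lost when single libraries were left out. That of Psmb8 was lost with medians set equal (adjusted p = 0.0504), with quantile normalization (0.0539) and with no filter on the mean (0.0572), and also without fasted replicate 1 or 4 or fed replicate 2, 3 or 4 (adjusted p 0.0815 to 0.109), and that of Iigp1 without fasted replicate 3 or 4 or fed replicate 2, 3 or 4 (0.0685 to 0.0909). That of Psmb9 was lost without fasted replicate 1 or 2 or fed replicate 2, 3 or 4 (0.0524 to 0.0584), that of Gbp7 without fasted replicate 1 or 4 or fed replicate 3 or 4 (0.0509 to 0.0620), and that of Irgm1 without replicate 3 of either group (0.0564 and 0.0566). The number called lower was 3 without fed replicate 3, 4 without fed replicate 4, 5 without fed replicate 2 or fasted replicate 1 or 4, and 7 without fasted replicate 2. Without fed replicate 1 there were 10, Ifih1 (adjusted p = 0.0371) and Apol9a (0.0130) among them. Ifit1 was called higher without fasted replicate 1 (0.0221).

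Loss of Bcl6 in hepatocytes was examined in fed mice. Of the 36 genes, 13 rose and 3 fell, which is 36.1% and 8.33%, against 18.3% and 19.8% of all 12115 genes tested. The groups did not overlap in 14 members (38.9%, against 36.7% of all genes). The median difference was 0.13 for the members and -0.00740 for all genes. This split depended on scaling: when every library was brought to an equal total, the all-gene median moved to -0.22, and 3 members were higher and 12 lower. The 3 that stayed higher were H2-Eb1, Igtp and Gbp3. With equal totals, 976 of all 12115 genes tested were higher and 6892 lower, against 2212 and 2394 as deposited. Of all called genes, 48.0% were higher as deposited and 12.4% with equal totals.

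The class II genes had the widest differences among those that rose. H2-Eb1, a class II beta chain, was 8.15, 8.70, 8.19 and 8.51 in Bcl6LKO livers, against 8.02, 7.71, 7.56 and 7.84 in WT livers (difference 0.61, SE 0.13, adjusted p = 0.00474). H2-Ab1, the other beta chain, was 8.13, 8.65, 8.15 and 8.44 in Bcl6LKO livers, against 7.97, 7.82, 7.41 and 8.01 in WT livers (0.54, SE 0.15, adjusted p = 0.0153). In both genes Bcl6LKO replicates 2 and 4 were the highest and the groups did not overlap. H2-Aa, an alpha chain, differed by 0.53 (SE 0.15, adjusted p = 0.0212). Cd74, the invariant chain that guides class II molecules, was 9.88, 10.63, 10.10 and 10.34 in Bcl6LKO livers, against 10.02, 9.84, 9.38 and 9.95 in WT livers, and with overlapping groups it did not pass (0.44, SE 0.17, adjusted p = 0.0582). Ciita, the transactivator of class II genes, rose by 0.55 (SE 0.15, adjusted p = 0.0168).

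Markers of some other cells were also higher in these livers as deposited, where 18.3% of all genes tested were called higher. The marker sums were not taken with equal library totals. The summed leukocyte markers were 9.86 to 10.06 in Bcl6LKO and 9.62 to 9.82 in WT livers, with 2 of 5 called higher. The summed dendritic cell markers were 7.80 to 8.01 in Bcl6LKO and 7.52 to 7.72 in WT livers, with 1 of 3 tested called higher (Itgax, 0.65, SE 0.12). In neither list did the sums overlap between the groups. Cd79b, a part of the B cell receptor, rose by 0.31 (SE 0.08). Of the monocyte markers 2 of 4 tested were called higher, with sums of 9.55 to 9.89 in Bcl6LKO and 9.38 to 9.77 in WT livers. The endothelial sum was likewise 12.97 to 13.19 in Bcl6LKO and 12.74 to 12.89 in WT livers, with 6 of 10 markers called higher, whereas for Kupffer cells 1 of 12 was called and the sums overlapped. Neutrophil and stellate cell sums overlapped too, with 1 of 3 and 2 of 8 markers tested called higher. Of the cholangiocyte and erythroid markers tested, 1 of 3 and 1 of 6 fell and 0 rose. The summed hepatocyte markers were 21.27 to 21.39 in Bcl6LKO and 19.68 to 20.19 in WT livers, with 3 of 10 called higher and 5 lower. The median difference of these 10 markers was -0.31, opposite in direction to their sum. No listed marker present in the tables was at 0 in every library. In bulk liver more cells of a type and more RNA per cell cannot be told apart, and the part of these cells in the class II result was not tested.

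Among GTPases that act on vacuoles of pathogens, Igtp was 8.60, 9.07, 9.02 and 8.86 in Bcl6LKO livers, against 8.40, 8.29, 8.45 and 8.40 in WT livers. It rose by 0.50 (SE 0.09, adjusted p = 0.00193), with no overlap. Gbp3 was 7.30, 7.40, 7.24 and 7.41 in Bcl6LKO livers, against 6.68, 6.84, 7.02 and 6.76 in WT livers (0.51, SE 0.08, adjusted p = 0.000641). Gbp2 and Gbp7 rose by 0.30 (SE 0.08) and 0.29 (SE 0.08), and Irgm1 and Iigp1 had differences of -0.11 and 0.01. Of 11 other GBP and IRG genes tested, 5 rose, led by Gbp9 (1.12, SE 0.10) and Gbp6 (1.06, SE 0.11), and 1 fell.

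Of the antiviral effectors, Oasl2 rose by 0.44 (SE 0.12), Ifit2 by 0.43 (SE 0.11), Rsad2 by 0.40 (SE 0.08) and Ifit3 by 0.24 (SE 0.07). In Ifit3, 41.1% of the 75-base windows occur also in Ifit3b, so that its unique reads come from the rest of the gene. Ifit1 did not pass, with 6.87, 7.43, 7.11 and 7.14 in Bcl6LKO livers and 6.91, 6.93, 7.32 and 6.97 in WT livers (0.11, SE 0.12, adjusted p = 0.534). Irf1, a transcription factor induced by interferon gamma, was 9.11, 9.08, 9.17 and 9.06 in Bcl6LKO livers, against 8.22, 8.99, 8.66 and 8.85 in WT livers (0.42, SE 0.13, adjusted p = 0.0289). Its Bcl6LKO libraries lay close together and the WT libraries were spread out. Psmb8 rose by 0.36 (SE 0.08, adjusted p = 0.00731).

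The genes that fell were H2-K1, Apol9b and Usp18. H2-K1, a class I heavy chain, was 13.07, 13.09, 13.10 and 13.00 in Bcl6LKO livers, against 13.42, 13.48, 13.44 and 13.47 in WT livers. This was the smallest adjusted p among the members here (difference -0.39, SE 0.05, adjusted p = 0.000118). H2-D1, the other classical heavy chain, had a difference of -0.15 (SE 0.06, adjusted p = 0.0646), and B2m, the light chain, of -0.05 (SE 0.05, adjusted p = 0.505). Usp18, which removes ISG15 from proteins and dampens receptor signalling, was 6.08, 6.67, 6.35 and 6.52 in Bcl6LKO livers, against 6.52, 6.96, 7.23 and 6.87 in WT livers, with overlap (-0.49, SE 0.15, adjusted p = 0.0288). Of 44 other interferon-induced effectors, 17 rose and 5 fell, the largest being Ifi27l2b (1.55, SE 0.12), Cmpk2 (0.67, SE 0.10) and Tor3a (0.52, SE 0.09). Across all genes tested, 18.3% rose and 19.8% fell. The counts of this and the other pathway lists are as deposited and were not taken with equal library totals.

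Some of these calls were lost when 1 library was left out. That of Usp18 was lost without Bcl6LKO replicate 1 or 3 or WT replicate 2, 3 or 4 (adjusted p 0.0540 to 0.0775), that of Irf1 without any 1 Bcl6LKO replicate or WT replicate 3 (0.0539 to 0.0661), that of Ifit3 without Bcl6LKO replicate 2 or 3 or WT replicate 1 or 2 (0.0501 to 0.0633), and that of H2-Aa without Bcl6LKO replicate 4 or WT replicate 3 (0.0606 and 0.0609). Cd74 was called higher without replicate 1 of either group (0.0224 and 0.0430), Oas2 without WT replicate 2 (0.0109) and Isg15 without Bcl6LKO replicate 1 (0.0426). H2-D1 was called lower without WT replicate 3 (0.0369) and Apol9a without WT replicate 1 (0.0383). The members called were 14 higher and 2 lower without Bcl6LKO replicate 1, 11 and 3 without its replicate 2, 13 and 4 without WT replicate 1, and 11 and 3 without WT replicate 3. The call of Ifit3 was also lost with quantile normalization (0.0728) and that of Irf1 with a robust prior (0.0501).

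**Figure D2:**
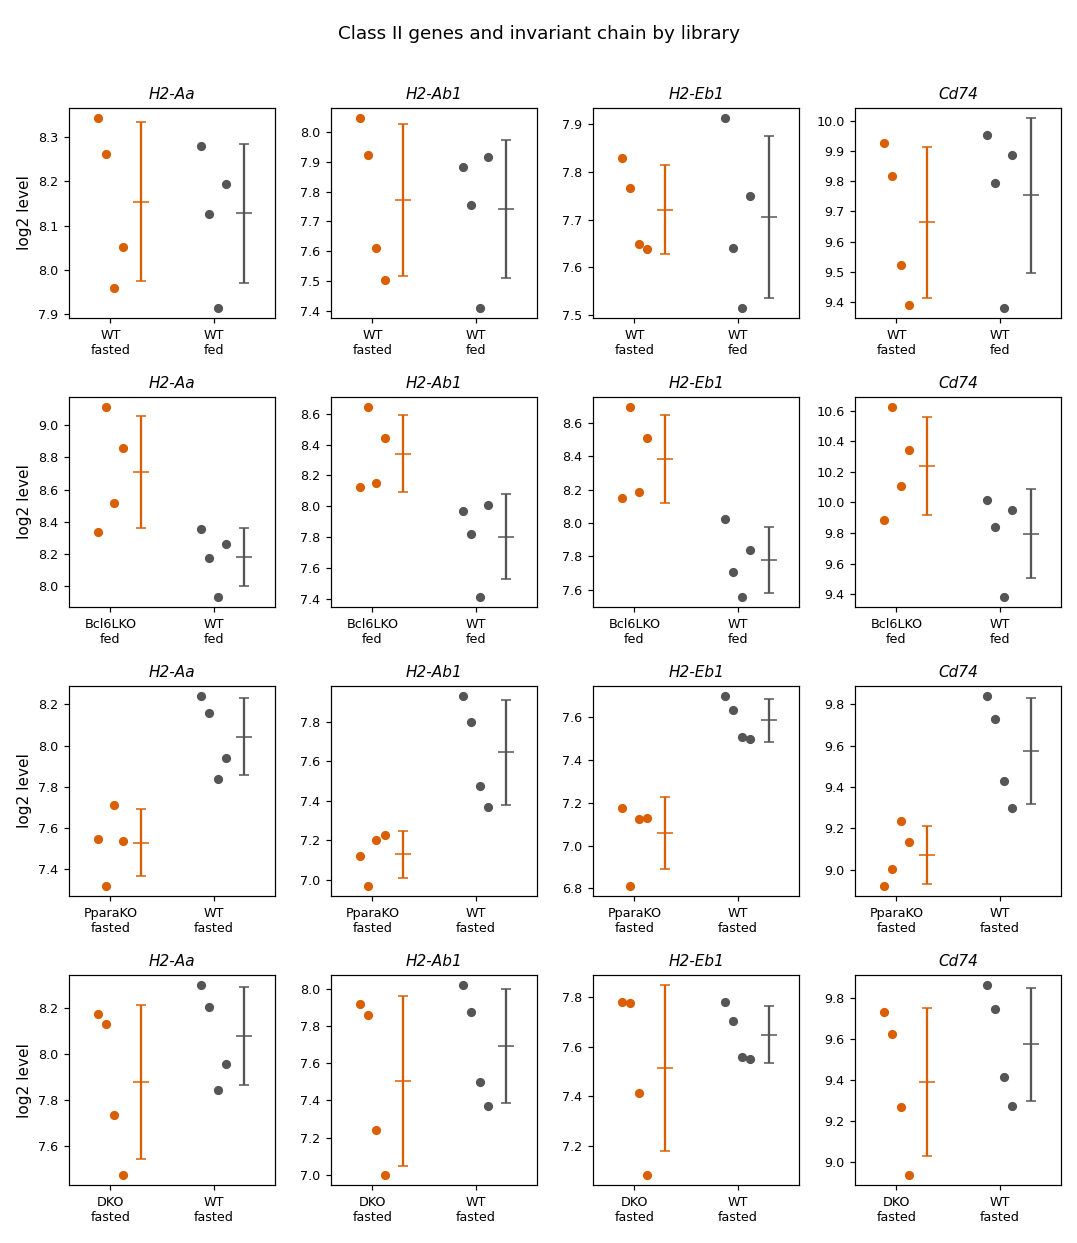
Log2 levels (y axis, each panel with its own range) of 3 class II chains and the invariant chain Cd74 in each library, with mean and SD beside the points. Rows are the fasting, Bcl6 loss, Ppara loss and double loss tables. All 4 PparaKO libraries lie below the 4 WT fasted libraries in each gene of the third row, and DKO replicates 1 and 2 lie above replicates 3 and 4 in the fourth.

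Loss of Ppara was examined in fasted mice. Of the 36 genes, 7 rose (19.4%) and 8 fell (22.2%), against 11.7% and 13.3% of the 11932 genes tested. The groups did not overlap in 15 members (41.7%, against 26.7% of all genes). The median difference was 0.07 for the members and 0.01 for all genes. Irf7, Usp18, Ifi44, Oas1a, Apol9a, Tap2 and Psmb8 rose, and Irf1, Gbp2, Igtp, Iigp1 and all 4 class II genes fell.

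Irf7, the factor that amplifies type I interferon production, was 9.50, 9.67, 10.14 and 9.82 in PparaKO livers, against 9.22, 9.25, 9.02 and 8.82 in WT livers (difference 0.71, SE 0.13, adjusted p = 0.00282). Usp18 was 7.64, 8.17, 8.37 and 7.98 in PparaKO livers, against 7.17, 7.38, 7.36 and 7.48 in WT livers (0.69, SE 0.13, adjusted p = 0.00349). Neither gene had overlapping groups, and PparaKO replicate 3 was the highest in both. Ifi44 rose by 0.47 (SE 0.09, adjusted p = 0.00363). Oas1a, a sensor enzyme that makes oligoadenylates, rose by 0.46 (SE 0.10, adjusted p = 0.00499), and 47.6% of its 75-base windows occur also in Oas1g, so that its unique reads come from the rest of the gene. Isg15 was 5.80, 5.90, 6.68 and 6.19 in PparaKO livers, against 5.67, 5.81, 5.59 and 5.93 in WT livers. With overlapping groups it did not pass (0.40, SE 0.16, adjusted p = 0.0990).

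The class II genes had nearly equal differences. H2-Eb1 was 7.18, 6.81, 7.12 and 7.13 in PparaKO livers, against 7.70, 7.64, 7.51 and 7.50 in WT livers (-0.53, SE 0.09, adjusted p = 0.00163). Cd74 was 8.92, 9.0, 9.24 and 9.14 in PparaKO livers, against 9.84, 9.73, 9.43 and 9.30 in WT livers (-0.50, SE 0.12, adjusted p = 0.00940). H2-Ab1 differed by -0.52 (SE 0.12) and H2-Aa by -0.52 (SE 0.10), and in none of the 4 genes did the groups overlap. All 4 calls held in every alternative run, each single-library omission included, other than a fold over 2. Ciita fell by 0.21 (SE 0.07, adjusted p = 0.0475), while 3 of 7 other class II pathway genes rose and none fell, among them the lysosomal proteases Ctsl (0.77, SE 0.09), Lgmn (0.43, SE 0.11) and Ctss (0.32, SE 0.10). The summed leukocyte markers were 9.39 to 9.86 in PparaKO and 9.33 to 9.57 in WT livers with 0 of 5 called by limma, and the summed dendritic cell markers were 7.67 to 7.81 in PparaKO and 7.68 to 7.81 in WT livers, with 0 of 3 called. The summed Kupffer cell markers were 12.77 to 13.28 in PparaKO and 12.55 to 12.90 in WT livers, with 1 of 12 higher (Marco, 0.77, SE 0.13). The monocyte sums were 9.29 to 9.49 in PparaKO and 9.05 to 9.26 in WT livers. The neutrophil sums were 6.69 to 7.05 in PparaKO and 6.44 to 6.66 in WT livers, with 1 of 3 tested called higher. The groups did not overlap in the monocyte and neutrophil sums and overlapped in the other 3, Cd79b did not pass the filter on low values, and the part of these cells in the class II result was not tested.

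Irf1 was 8.55, 8.63, 8.44 and 8.24 in PparaKO livers, against 8.66, 8.91, 8.68 and 8.92 in WT livers (-0.32, SE 0.09, adjusted p = 0.0274). Igtp was 7.87, 8.14, 8.21 and 8.02 in PparaKO livers, against 8.42, 8.60, 8.32 and 8.47 in WT livers (-0.39, SE 0.09, adjusted p = 0.00652). In both genes all PparaKO libraries were the lower ones. Gbp2 fell by 0.33 (SE 0.09) and Iigp1 by 0.35 (SE 0.10). Stat2 and Irf9, of the complex that type I interferons activate, did not pass, with differences of -0.05 (SE 0.07) and 0.02 (SE 0.10). Nor did the class I genes H2-K1 (-0.03, SE 0.07), H2-D1 (0.15, SE 0.07) and B2m (-0.13, SE 0.07), although the groups of B2m did not overlap. Of 45 other interferon-induced effectors, 10 rose and 1 fell (Cxcl9, a chemokine induced by interferon gamma, -0.48, SE 0.09), the highest being Ly6e (1.09, SE 0.11) and Ifi27 (0.92, SE 0.09). Across all genes tested, 11.7% rose and 13.3% fell.

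5 of these calls were not held by every omission of a library. The call of Gbp2 was lost without PparaKO replicate 1 or 4 or WT replicate 1 or 2 (adjusted p 0.051 to 0.0736), that of Psmb8 was lost without PparaKO replicate 1, 3 or 4 or WT replicate 1 or 4 (adjusted p 0.0715 to 0.1). That of Iigp1 was lost without PparaKO replicate 2 or 4 or WT replicate 1 or 2 (adjusted p 0.0568 to 0.0901), that of Tap2 was lost without PparaKO replicate 3 or 4 or WT replicate 2 (adjusted p 0.0534 to 0.0573) and that of Irf1 was lost without PparaKO replicate 3 or 4 or WT replicate 2 or 4 (adjusted p 0.0642 to 0.0806). Gbp3 (adjusted p = 0.00946), Isg15 (0.0417) and Ifi35 (0.0251) were called higher without PparaKO replicate 1, and Ifih1 without replicate 4 of either group (0.0355 and 0.0481). The members called were 9 higher and 7 lower without PparaKO replicate 1, 5 and 7 without its replicate 3, 6 and 5 without its replicate 4, and 6 and 5 without WT replicate 2. The call of Iigp1 was also lost with quantile normalization (0.177) and that of Psmb8 with the replicate block (0.0638). With quantile normalization H2-D1 (0.0178) and Ifih1 (0.0271) were called higher.

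**Figure D3:**
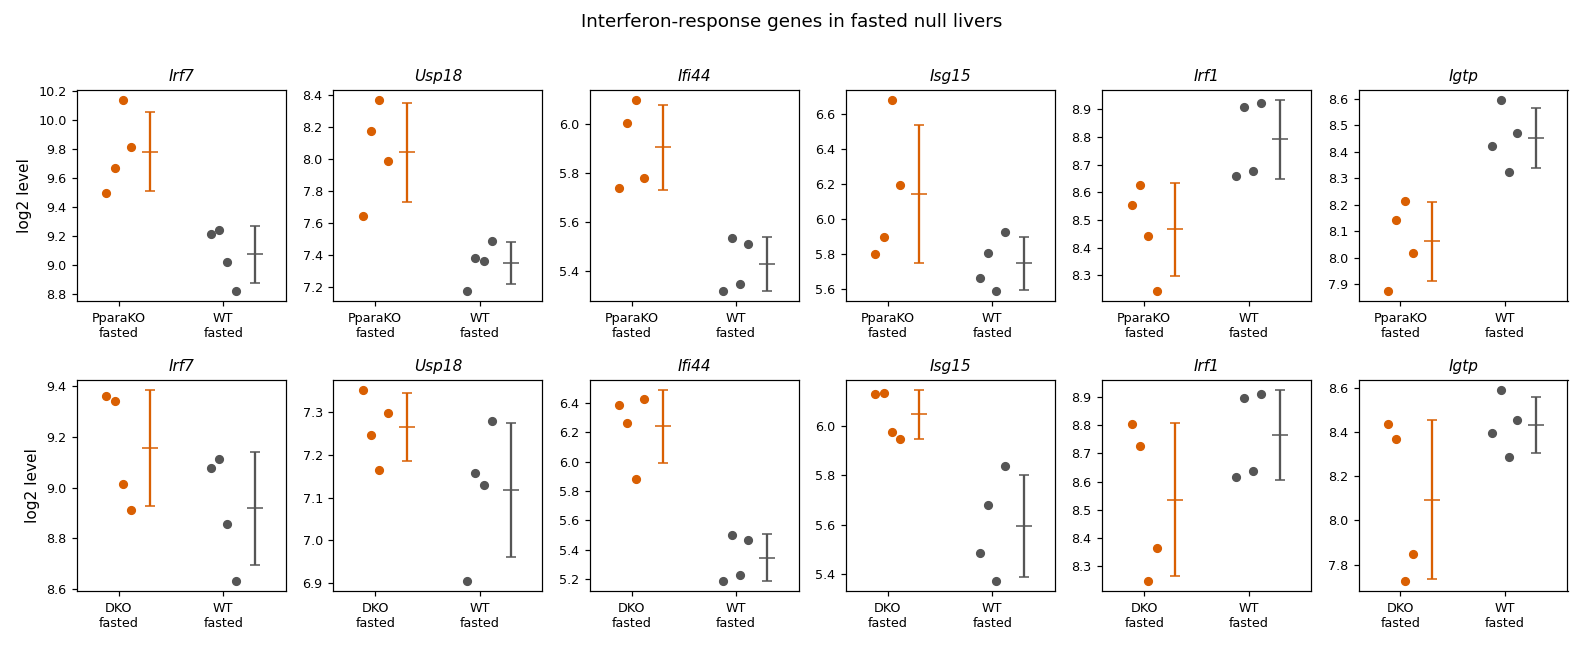
Log2 levels (y axis, each panel with its own range) of 6 interferon-response genes in each library, with mean and SD beside the points, for PparaKO and WT fasted livers (top row) and DKO and WT fasted livers (bottom row). Irf7, Usp18 and Ifi44 lie above WT and Irf1 and Igtp below it in PparaKO livers, and in DKO livers only Ifi44 and Isg15 of these 6 are clear of WT.

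The combined loss of Ppara and hepatocyte Bcl6 was examined in fasted mice against the same WT fasted libraries, as these are shared by both comparisons. Of the 36 genes, 5 rose (13.9%) and 2 fell (5.56%), against 19.3% and 20.8% of the 12004 genes tested. The groups did not overlap in 7 members (19.4%, against 39.1% of all genes). The median difference was -0.02 for the members and 0.00274 for all genes. With library totals set equal, 3 members were higher and 6 lower. In that scaling 1590 of all 12004 genes tested were higher and 3416 lower, against 2314 and 2494 as deposited. The median SD within groups was 0.22 for the members and 0.14 for all genes, against 0.16 and 0.10 in the PparaKO table.

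Ifi44 was 6.39, 6.26, 5.88 and 6.43 in DKO livers, against 5.19, 5.50, 5.23 and 5.47 in WT livers. This difference of 0.89 (SE 0.13, adjusted p = 0.000394) was the largest of any member in the 4 comparisons, and the groups did not overlap. Isg15 was 6.13, 6.13, 5.98 and 5.95 in DKO livers, against 5.49, 5.68, 5.37 and 5.84 in WT livers (0.45, SE 0.11, adjusted p = 0.00844). Oasl2 rose by 0.37 (SE 0.10, adjusted p = 0.0140) with overlapping groups, Tap2 by 0.32 (SE 0.08, adjusted p = 0.00988) and Ifi35 by 0.20 (SE 0.07, adjusted p = 0.0373). H2-K1 was 13.29, 13.23, 13.42 and 13.18 in DKO livers, against 13.58, 13.68, 13.55 and 13.54 in WT livers (-0.30, SE 0.08, adjusted p = 0.0128). Every DKO library was lower than every WT one. H2-K1 was the only class I gene called, and H2-D1 was called higher with quantile normalization (0.21, adjusted p = 0.0316).

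The DKO libraries that stood apart are seen in single members. H2-Ab1 was 7.92, 7.86, 7.24 and 7.0 in DKO livers, against 8.02, 7.87, 7.50 and 7.37 in WT livers (-0.19, SE 0.22, adjusted p = 0.524). Ifit1 was 7.65, 7.54, 6.70 and 6.62 in DKO livers, against 6.85, 7.44, 7.39 and 7.62 in WT livers (-0.20, SE 0.25, adjusted p = 0.563). Replicates 1 and 2 were the high ones in both genes, and the groups overlapped. Irf7 and Usp18 did not pass, with differences of 0.24 (SE 0.13) and 0.15 (SE 0.09), nor did any class II gene. Whether the DKO differs from the PparaKO in any of these genes was not tested, because no table holds both.

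Without DKO replicate 1, 6 members were called lower, with Irgm1 (adjusted p = 0.0253), Irf9 (0.0341), Gbp2 (0.0347) and Igtp (0.0354) joining H2-K1 and Apol9b. Without DKO replicate 3, Ifit2 (0.0185), Ifit3 (0.0129) and Rsad2 (0.0192) were called higher, and without DKO replicate 4, Psmb8 (0.0118) and Apol9a (0.00397). Iigp1 was called lower without WT replicate 4 (0.0412). The call of Ifi35 was lost without DKO replicate 2, 3 or 4 or WT replicate 2, 3 or 4 (0.0689 to 0.101). It was also lost with library medians set equal (0.0580), with quantile normalization (0.0639) and with the replicate block (0.0826). With library totals set equal the calls of Ifi35 (0.250) and Oasl2 (0.0567) were lost, and Ifi44, Isg15 and Tap2 were still called higher. The members called were 6 higher and 2 lower without DKO replicate 4, and 4 higher and 2 lower without WT replicate 2. Of 44 other effectors, 7 rose and 2 fell, where 19.3% and 20.8% of all genes tested rose and fell. Those that rose were led by Ifi27l2b (2.15, SE 0.12) and Ly6e (1.51, SE 0.14). All 6 erythroid markers fell and all 3 neutrophil markers tested rose. The summed hepatocyte markers were 20.91 to 21.16 in DKO and 20.23 to 20.43 in WT livers, with 3 of 10 called higher and 3 lower. The median difference of these 10 markers was -0.14, opposite in direction to their sum. The part of these markers in these results was not tested.

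**Figure D4:**
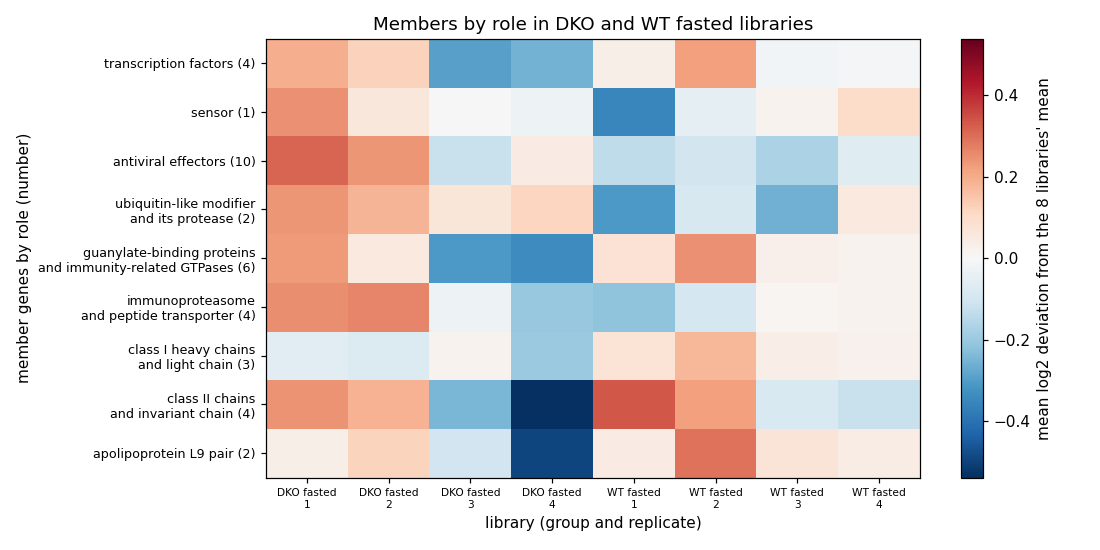
Mean log2 deviation (colour) of the members of each role (rows, with the number of genes) from their mean over the 8 libraries of the double loss table (columns). DKO replicates 1 and 2 are above the mean for most roles and replicates 3 and 4 below it for the GTPases, class II genes and transcription factors.

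Apol9a and Apol9b encode interferon-induced apolipoproteins of the L family, and their promoters share the printed ISRE cores. Apol9a (chr15:77403789-77411080) and Apol9b (chr15:77729047-77736382) lie 8.32 and 8.0 Mb before Ppara on the same chromosome (GRCm38.p6). Whether this position near the deleted gene had a part in their values in PparaKO and DKO livers was not tested. Reads that fit both were not counted, since the authors kept unique mappers, and 46.6% of the 75-base windows of Apol9a and 43.3% of those of Apol9b occur in the other, so that each value rests on the remaining sequence. Apol9a was 8.65, 8.98, 8.95 and 8.94 in PparaKO livers, against 8.12, 8.30, 8.18 and 8.18 in WT fasted livers. It rose by 0.68 (SE 0.08, adjusted p = 0.000129), the smallest adjusted p among the members in that table, whereas Apol9b had overlapping groups (0.05, SE 0.09, adjusted p = 0.726).

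Apol9b was 8.69, 8.64, 8.81 and 8.76 in Bcl6LKO livers, against 8.95, 9.47, 9.61 and 9.27 in WT fed livers (-0.60, SE 0.12, adjusted p = 0.00266). In the same table Apol9a was 8.15, 8.33, 8.35 and 8.26 in Bcl6LKO livers, against 7.74, 8.69, 8.78 and 8.31 in WT livers (-0.11, SE 0.19, adjusted p = 0.668). The WT fed libraries were spread out in both genes, with replicate 1 the lowest. Apol9b was 8.60, 8.63, 8.36 and 8.08 in DKO livers, against 9.05, 9.34, 9.04 and 8.98 in WT fasted livers, with no overlap (-0.68, SE 0.13, adjusted p = 0.00178). Apol9a in DKO livers was 8.36, 8.51, 8.34 and 7.84, against 7.94, 8.14, 8.0 and 8.0 in WT livers (0.24, SE 0.13, adjusted p = 0.168). With fasting, neither gene was called (-0.25 and -0.12). Calls of Apol9b in Bcl6LKO and DKO livers and of Apol9a in PparaKO livers held in every alternative run other than a fold over 2. A difference between the 2 genes was not tested.

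**Figure D5:**
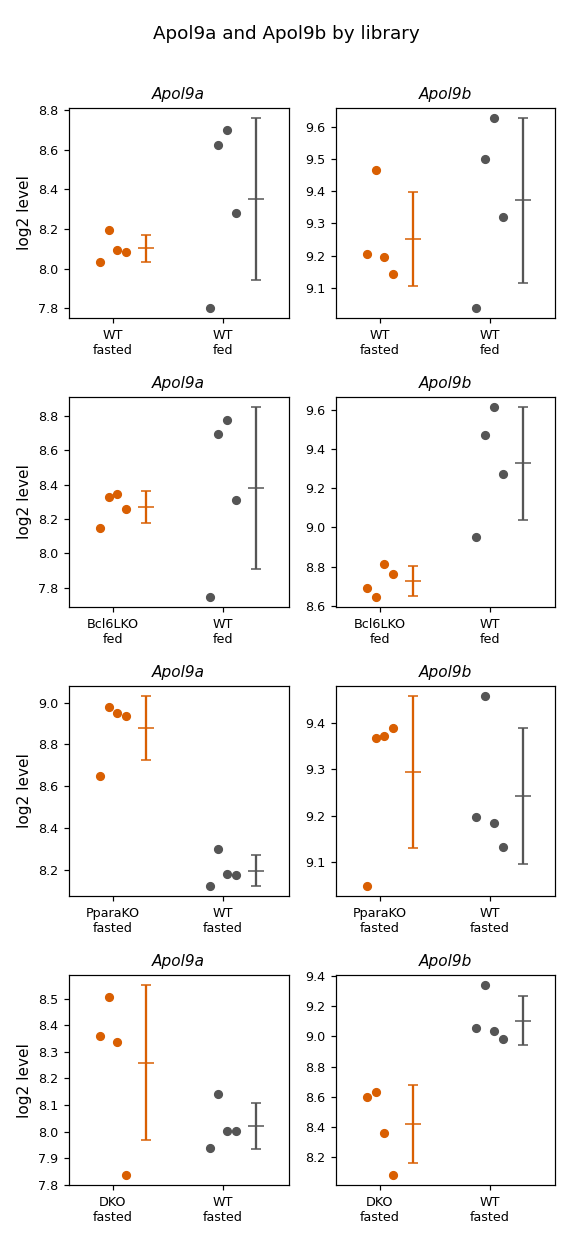
Log2 levels (y axis, each panel with its own range) of Apol9a (left) and Apol9b (right) in each library, with mean and SD beside the points, in the fasting, Bcl6 loss, Ppara loss and double loss tables from top to bottom. Apol9a is clear of WT in PparaKO livers, and Apol9b in Bcl6LKO and DKO livers.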

How the data were processed

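The authors aligned reads with STAR to mm10, kept unique mappers, counted them over exons with HOMER and used DESeq2 on each pair of groups. The 4 deposited tables hold 8 libraries each, as log2 levels scaled by the authors within the table. The fold change, p-value and adjusted p-value columns of the authors' own comparisons were not used. Groups came from the labels. Of 24 labelled samples, 4 (fasted Bcl6LKO) were not used here.

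Each table was tested with limma 3.58.1 (R 4.3.3; intensity trend in the prior) on genes not at 0 throughout and with a mean of at least 4, and p-values were adjusted by Benjamini-Hochberg. Precision is limited by 4 libraries per group. The test was first tried on simulated data. It recovered 88% of changes of 0.5 log2 in the fasting table and 76% in the Bcl6 loss table. For Ppara loss it recovered 80%, and for double loss 60%, so changes of that size were missed most often in DKO livers. Same-numbered libraries deviated together in the fasting table (correlations 0.13 to 0.26, all 4 over 0.1), with no pairing stated in the labels, and in none of the other 3. Alternatives were other scalings, filters, priors, the replicate block, a fold over 2 and each library left out. Named genes were all 36 members, with values per library for a listed set and for the called members with the largest differences, and up to 3 called genes per further list. The members and lists were chosen with earlier results of these data known. Promoters and positions are from RefSeq.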

Additional observations from a re-analysis of the deposited data

Results flagged for a closer look

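In 14 of 288 groups of 4 libraries (4.86%), 1 library stood far from the other 3, and chance alone gives about 1 group in 20. WT fasted libraries are in 3 tables and WT fed libraries in 2, so some recur. Irf7 was 8.84 in WT fed replicate 1 in both the fasting and the Bcl6 loss tables, below the other 3. Ifit1 was 7.34 in WT fed replicate 3 in the fasting table and 7.32 in the Bcl6 loss table, above the others. Ifit2 was 6.52, 6.55 and 6.5 in WT fasted replicate 2 in the fasting, Ppara loss and double loss tables, below the others. Isg15 was 5.8 in Bcl6LKO fed replicate 1, below 6.25 to 6.32. In PparaKO livers, Irgm1 was 9.14 in replicate 4, Tap1 was 8.0 and H2-Eb1 6.81 in replicate 2, and Apol9a was 8.65 and Apol9b 9.05 in replicate 1, each below the other 3. B2m was 13.37 in DKO replicate 4, below 13.55 to 13.58.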

How the results depend on the processing

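Of the 9, 16, 15 and 7 calls made in the fasting, Bcl6 loss, Ppara loss and double loss tables, 4, 5, 10 and 5 held in every alternative in which the gene was tested, other than a fold over 2, a limit at which no member was called in any table (0 higher and 0 lower). In the fasting table, 3 members were higher with library medians set equal, 2 with one prior spread for all genes and 2 with the replicate block. With equal library totals 13 were lower, as were 3293 of all 11910 genes tested. Leaving out 1 library gave 1 to 2 higher and 3 to 10 lower. In the Bcl6 loss table, equal totals gave 3 higher and 12 lower, where 976 and 6892 of all 12115 genes tested were higher and lower. With these totals, 4 genes that were above 0 without being called became lower, Stat2 (-0.14), Tap2 (-0.14), Ifi35 (-0.19) and Iigp1 (-0.21). That scaling lowers every gene of a library whose total is larger, and back-transformed totals were 14521032 to 15143721 in Bcl6LKO and 12639695 to 12962899 in WT livers. Leaving out 1 library gave 11 to 14 higher and 2 to 4 lower. In the Ppara loss table it gave 5 to 9 higher and 5 to 8 lower, and a mean of at least 6 gave 5 higher, Oas1a and Ifi44 not being tested. In the double loss table, equal totals gave 3 higher and 6 lower, where 1590 and 3416 of all 12004 genes tested were higher and lower. A mean of at least 6 gave 3 higher because Ifi44 and Isg15 were not tested, and leaving out 1 library gave 4 to 7 higher and 2 to 6 lower. For the other changes the cause was not tested. A fit with the replicate block gave 15 higher and 4 lower in Bcl6 loss, 6 and 8 in Ppara loss, and 5 and 3 in double loss. Same-numbered libraries correlated between -0.13 and 0.10 in these 3 tables, so the numbers gave no sign of a pairing there. The depth of the libraries could not be read from log2 levels, and small differences in weakly expressed members could be missed.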

Other observations

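Other genes of the same pathways, listed with the members, gave these values. Mavs, the mitochondrial adaptor of RNA sensors, fell by 0.65 (SE 0.07) in DKO, by 0.20 (SE 0.06) in PparaKO and by 0.30 (SE 0.05) in Bcl6LKO livers, and rose by 0.21 (SE 0.04) with fasting. Zbp1, a sensor of nucleic acids, rose by 0.95 (SE 0.10) in Bcl6LKO livers. Cd1d1, a class I-like molecule that presents lipids, fell by 1.20 (SE 0.13) in DKO and by 0.41 (SE 0.09) in PparaKO livers, and rose by 0.57 (SE 0.05) with fasting. The chaperones of class I loading Calr and Pdia3 rose by 0.88 (SE 0.21) and 0.77 (SE 0.24) in DKO livers. Of the 14 constitutive proteasome genes, 4 fell in PparaKO and 3 in DKO livers, where 13.3% and 20.8% of all genes tested fell. Irf5, a factor of inflammatory genes, rose by 0.58 (SE 0.06) in PparaKO and 0.37 (SE 0.09) in DKO livers, and fell by 0.59 (SE 0.09) in Bcl6LKO livers and by 0.65 (SE 0.07) with fasting.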
